A study of Mus musculus with 2 samples.

Results

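Layer 6 is the deepest layer of the neocortex, next to the white matter, and the spots described here are the 110 per brain section with the strongest RNA signal of 4 layer 6 genes. The choice was made in 2 sections, 1 from each of 2 mice, so that 220 of the 7264 spots under tissue were taken. A spot is a small region of the 10x Visium capture array that pools RNA from several cells of different types, and it is not a cell. Spots qualified with at least 500 UMIs (unique molecular identifiers, each counting 1 captured RNA molecule) and an array row of 40 or less, which covers the dorsal part of the section. They were ranked by the mean over Vxn, Myl4, Tbr1 and Rprm of the natural log of 1 plus the count scaled to 10000 per spot. These 4 genes therefore chose the spots, and their levels are given as a description.

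Both mice belonged to 1 group: each expressed hM3Dq, an engineered receptor that excites neurons when its drug is given, and each received that drug, CNO. The genotype label of mouse 1 is WT:C57BL/6J control and that of mouse 2 is WT:CRISPR-Cas9 edited isogenic control. No section of an untreated or hM3Dq-free animal was analysed here, and genotype label, section and library cannot be told apart between the mice. The sources used here do not give the promoter or vector of hM3Dq, the age of the mice or the image side of the injection. Sections of 10 µm were cut 1.9 mm behind bregma from fresh-frozen, unperfused brains trimmed at the sides, in front of an injection placed 4.6 mm behind bregma. Blood was therefore left in the vessels. The series as a whole asks about C1q and immunoglobulins in synapse loss after neuronal activity, which is why those genes are reported below beside the layer genes.

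Most excitatory neurons of layer 6 belong to a few broad kinds. Corticothalamic cells send their axons to the thalamus and return collaterals to layer 4, intratelencephalic cells project within the cortex, and the thin layer 6b at the white matter border holds survivors of the embryonic subplate. Tbr1 is a T-box transcription factor that specifies corticothalamic identity in the embryo, and Foxp2, Tle4, Syt6 and Hs3st4 are textbook markers of the same cells. Ccn2, Cplx3 and Nxph4 are the corresponding markers of layer 6b.

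The 110 layer 6 spots held 952509 UMIs in mouse 1 and 1823607 in mouse 2, with medians of 8936 and 16335 UMIs and 3210 and 4665 genes per spot. Single spots ranged from 3044 to 17541 UMIs in mouse 1 and from 6242 to 33733 in mouse 2. The other 3602 and 3438 spots had medians of 7501.5 and 14599.5 UMIs. The share of mitochondrial RNA in layer 6 was 13.3% and 14.9%, beside 13.3% and 15.4% elsewhere. The sections share 3369 spot barcodes, which are positions on the array and not cells. Every value below is a level in CPM, the count scaled to 1e6 UMIs over the summed spots of 1 mouse, and where 2 values stand together mouse 1 comes first. In such sums, fewer cells of a type and less RNA per cell cannot be told apart.

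The spots formed a band in both hemispheres. In mouse 1, 53 lay left and 57 right of the midline, and in mouse 2, 64 and 46. Of the 110, 93 and 98 touched at least 1 other layer 6 spot and 78 and 93 touched at least 2, while 17 and 12 stood alone. The 200 spots per section richest in RNA of myelin genes served as a marker of white matter. Of the layer 6 spots, 38 and 65 touched one or were one themselves, as 2 and 14 were. Within 3 spot pitches of one lay 93 and 101. The median distance was 1.73 pitches in mouse 1 and 1 pitch in mouse 2. A dorsal mask, made of the spots above the topmost myelin-rich spot of their array column, held 102 and 90 of the layer 6 spots. The rule itself kept spots to array rows of 40 or less, so a dorsal place was in part fixed by it. The distance to myelin-rich spots was not in the rule. In mouse 1, 8 layer 6 spots lay outside the mask, and in mouse 2, 20.

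**Figure D1:**
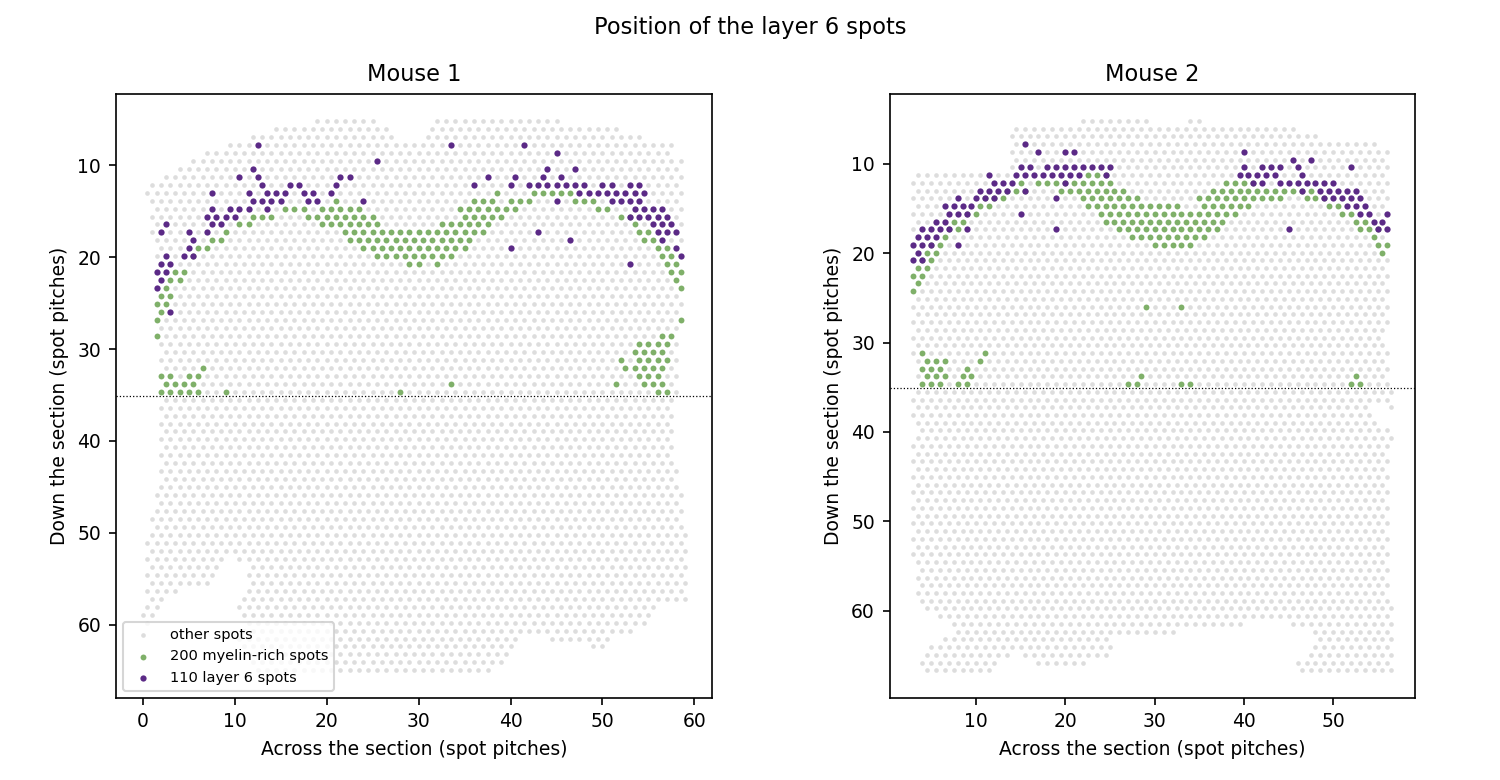
Map of both sections, 1 dot per spot at its place on the array, with the distance across and down the section in spot pitches; colours mark the 110 layer 6 spots, the myelin-rich spots and all others. The layer 6 spots form an arc mostly above the myelin-rich spots on both sides of the midline. All lie above the dotted line at array row 40, and 17 of 110 in mouse 1 and 12 of 110 in mouse 2 have no layer 6 neighbour.

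Vxn, which encodes the neurogenesis factor vexin, stood at 673 and 672 CPM in layer 6 and at 69.8 and 82.1 CPM in all other spots. Myl4, a myosin light chain gene best known from atrial muscle, stood at 307 and 239 CPM against 15.2 and 13.9. Tbr1 stood at 197 and 165 CPM against 16.9 and 16.5, and Rprm, a p53 target that encodes reprimo, at 155 and 178 against 11.6 and 16.5. In all 4 genes both layer 6 values were far above both values elsewhere, as the rule required. All 4 were seen in 61 of 110 layer 6 spots of mouse 1 and in 97 of mouse 2, and at least 3 in 109 and 110. The median spot held only 5 and 11 UMIs of Vxn, 2 and 3 of Myl4, 2 and 2 of Tbr1 and 1 and 3 of Rprm. The choice of a single spot near the threshold therefore rested on a few molecules: the last spot taken and the first left out had scores of 0.982 and 0.980 in mouse 1 and of 1.0289 and 1.0283 in mouse 2. Over the 20 spots just inside and the 20 just outside, Rprm was at 95.3 and 97.2 CPM in mouse 1 and at 117 and 106 in mouse 2.

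Each rule gene was also measured in spots chosen with the other 3 alone, so that it took no part in the choice. Vxn was then 7.73-fold and 7.28-fold higher in the chosen spots than elsewhere, Myl4 11.7-fold in both mice, Tbr1 7.85-fold and 8.43-fold and Rprm 9.51-fold and 7.89-fold. With all 4 genes in the rule the folds had been 9.65 and 8.18, 20.2 and 17.2, 11.7 and 9.95, and 13.4 and 10.8. Each gene was thus higher in the places that the other 3 marked. Between the full rule and each choice with 3 genes, 83 to 97 of the 110 spots were shared. These rules have 3 genes in common, so much of that overlap was built in.

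On the mm10 build (GRCm38.p6), RefSeq places Vxn at chr1:9601267-9627142, Myl4 at chr11:104546017-104587215, Tbr1 at chr2:61802863-61814114 and Rprm at chr2:54084093-54085552. RefSeq gave the bases before an annotated start for 9 of the 16 genes that chose or led the layer 6 spots. They were searched on both strands for TAATTA, the core that many homeodomain factors bind, and for GGTGTGA, the core of T-box sites such as those of Tbr1. TAATTA occurred before Tbr1, Arhgap25 and Ipcef1, in 3 of 12 windows of 250 bases, against 4.84% of all 32851 windows. GGTGTGA occurred in none of the 12, against 3.33% of all windows. The windows of Tbr1 (plus strand, chr2:61804203-61804452, inside the annotated span of the gene) and Rprm (minus strand, chr2:54085553-54085802) are shown because these genes chose the spots, and that of Cplx3 (minus strand, chr9:57606282-57606531) because it led the tested differences below. Capitals mark TAATTA, and a match is a run of letters, not a site shown to be bound.
Tbr1: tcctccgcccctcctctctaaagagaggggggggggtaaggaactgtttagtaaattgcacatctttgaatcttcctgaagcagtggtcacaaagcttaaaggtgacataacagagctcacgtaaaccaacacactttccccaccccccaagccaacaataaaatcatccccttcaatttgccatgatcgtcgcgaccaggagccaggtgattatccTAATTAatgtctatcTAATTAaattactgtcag
Rprm: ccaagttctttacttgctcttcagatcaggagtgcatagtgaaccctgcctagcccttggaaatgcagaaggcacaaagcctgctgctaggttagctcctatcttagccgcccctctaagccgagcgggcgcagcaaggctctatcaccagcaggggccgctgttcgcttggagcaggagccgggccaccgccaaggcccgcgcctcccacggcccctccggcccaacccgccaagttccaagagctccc
Cplx3: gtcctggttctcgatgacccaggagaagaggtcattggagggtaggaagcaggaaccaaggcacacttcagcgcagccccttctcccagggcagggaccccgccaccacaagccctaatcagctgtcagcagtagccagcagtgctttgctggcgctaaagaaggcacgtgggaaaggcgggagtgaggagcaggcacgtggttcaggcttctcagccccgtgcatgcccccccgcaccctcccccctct

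Against all other spots of the section, 7 of 9 measured corticothalamic genes were higher in the layer 6 spots and 11 of 11 measured thalamic genes lower. A gene counted as past the fold when it was at least 2-fold apart in the same direction in both mice with at least 20 CPM in the higher group. Of 7188 genes that reached that level, 209 (2.91%) were higher in layer 6 and 242 (3.37%) lower. This contrast chose the spots, so it carries no test and nothing is read from these shares.

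Trbc2, the constant region 2 gene of the T-cell receptor beta chain at chr6:41546730-41548181, came first after the rule genes when genes were ranked by the smaller of their folds in the 2 mice. Its level was 122 and 95.4 CPM in layer 6 and 9.56 and 8.71 CPM elsewhere, 12.7-fold and 10.95-fold higher. Its near-identical copy Trbc1 had no UMI in layer 6, although the share of reads assigned to either copy is uncertain. Hs3st2, which encodes a heparan sulfate sulfotransferase, stood at 71.4 and 72.4 against 6.26 and 6.90 CPM. Ipcef1, an adaptor of an Arf exchange factor, stood at 101 and 107 against 11.4 and 12.1 CPM. Arhgap25, a Rac GTPase-activating protein gene, was at 36.7 and 21.9 against 2.25 and 2.56 CPM, and Bmp3, a ligand of the bone morphogenetic protein family, at 17.8 and 25.8 against 2.15 and 1.91 CPM. In each of these genes both layer 6 values lay above both values of the other spots.

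Ighm, the heavy chain constant region gene of immunoglobulin M at chr12:113418826-113422730, was the sixth in that ranking. It stood at 171 CPM in both mice against 22.9 and 18.7 CPM elsewhere. The other leading genes were Gm11549, a predicted gene (71.4 and 68.5 against 10.2 and 9.33 CPM), Vipr1, a receptor of vasoactive intestinal peptide (21.0 and 25.2 against 3.26 and 3.55), Nxph3, a secreted neurexin ligand (34.6 and 37.8 against 5.48 and 6.04) and Col6a1, a collagen chain (26.2 and 16.5 against 2.83 and 2.84). Igfbp6, which binds insulin-like growth factors, stood at 178 and 151 against 33.2 and 28.7 CPM. Ccn2, a secreted matrix protein gene also known as connective tissue growth factor, differed most between the mice, at 47.2 and 105 CPM against 9.02 and 8.62 elsewhere. It was the leading gene whose layer 6 level was more than 2-fold higher in mouse 2 than in mouse 1.

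**Figure D2:**
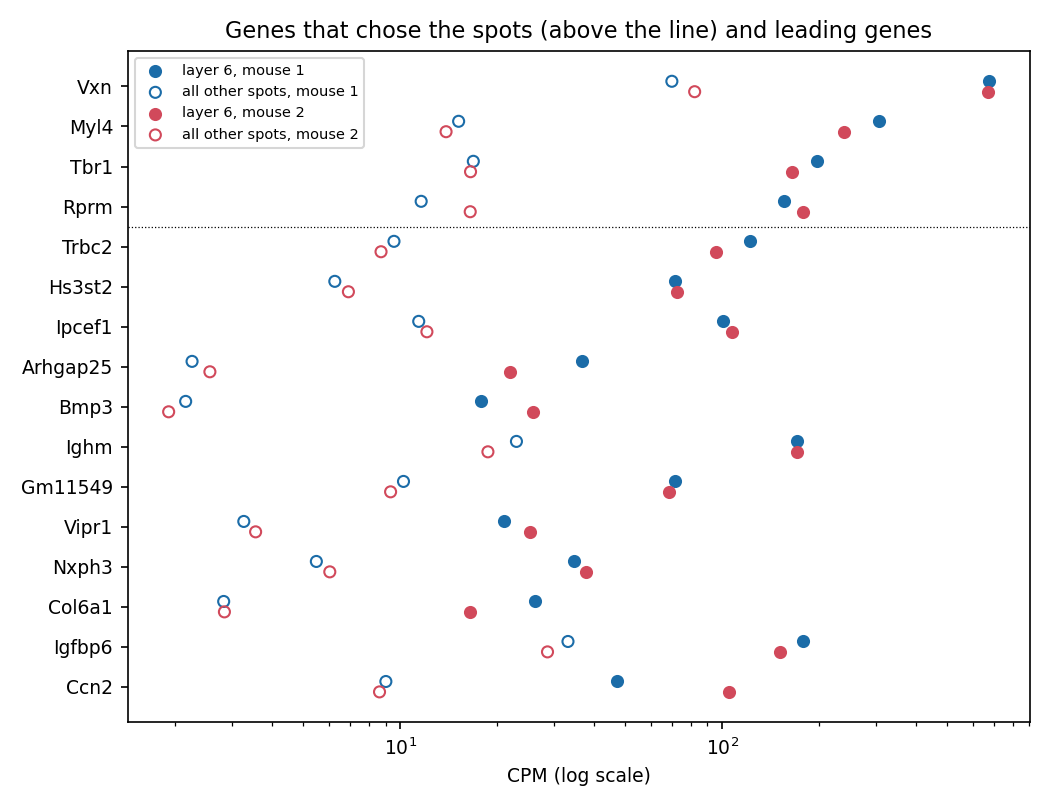
Levels in CPM on a log axis of the 4 rule genes and the 12 leading genes, with 1 point per mouse for the summed layer 6 spots and 1 for all other spots. In every gene both layer 6 points lie to the right of both points of the other spots, and the gap between mice is widest for Ccn2 (47.2 and 105 CPM).

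The lowest genes marked other parts of the section. Pmch, the hypothalamic peptide melanin-concentrating hormone, stood at 10.5 and 12.1 CPM in layer 6 against 1296 and 1444 elsewhere, and Hcrt, the orexin precursor, at 11.5 and 4.94 against 552 and 253. Prkcd, a kinase gene abundant in thalamus, stood at 14.7 and 15.4 against 419 and 538 CPM. Slitrk6, a thalamic synaptic adhesion gene, had no UMI in either set of layer 6 spots. A count of 0 allows up to 3 UMIs, so Slitrk6 was at least 7.14-fold and 14.9-fold lower. This limit and others of its kind cover counting error only.

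Gene lists are described in the same way. Of 13 listed corticothalamic genes 9 reached 20 CPM, and 7 of the 9 were past the fold (Trbc2, Garnl3, Hs3st4, Crym, Tle4, Zfpm2 and Syt6), with a median log2 difference of 1.56 beside -0.02 over all genes. Hs3st4, another heparan sulfate sulfotransferase, stood at 135 and 143 against 43.2 and 42.6 CPM, and Tle4, a corepressor, at 111 and 103 against 33.8 and 37.3. Nnat, neuronatin, went the other way, at 54.6 and 55.9 against 189 and 232 CPM. Foxp2, a forkhead factor, was above the other spots in mouse 1 and below them in mouse 2, at 55.6 and 47.2 against 42.5 and 52.3 CPM. The standard corticothalamic marker Ntsr1 gave only 10 and 13 UMIs in layer 6, too few for a comparison of levels.

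Of 35 cortical transcription factors 32 reached 20 CPM; 15 were higher past the fold, among them Fezf2 (50.4 and 55.9 against 10.9 and 10.6 CPM) and Lmo4 (343 and 353 against 106 and 129). Only Nr2f2 of this list was lower past the fold. All 11 measured thalamic genes were lower, as were the 4 measured meningeal and the 2 measured choroid plexus genes. Slc17a7, the vesicular glutamate transporter of cortex, was at 580 and 687 against 214 and 260 CPM, and Slc17a6, the transporter of thalamus, at 14.7 and 8.23 against 190 and 231. Levels of oligodendrocyte genes summed to 8626 and 11375 CPM in layer 6 against 12162 and 12464 elsewhere, and none of the 13 was past the fold.

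The cortex was then cut into strips by distance from the myelin-rich spots, over all 629 and 425 spots of the dorsal mask and with no use of the layer 6 rule. This profile was added after the data had been seen and is a description. The 4 rule genes did not trace the same depth. Vxn fell from 527 and 613 CPM in the strip touching the white matter to 193 and 200 CPM beyond 6 pitches, and Tbr1 from 146 and 140 to 66.5 and 54.5 CPM. Rprm was confined more closely, at 116 and 165 CPM in the first strip, 63.0 and 56.4 in the third and 11.7 and 28.2 in the fourth. Myl4 reached further out, with 139 and 82.8 CPM still present between 4 and 5 pitches.

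Ccn2, Cplx3, Nxph4, Foxp2, Trbc2 and Ighm, which the rule did not use, had their highest strip within 2 pitches of the white matter in both mice. Ccn2 stood at 113 and 111 CPM in the strip touching the white matter and at 10.4 and 14.5 in the next, and Cplx3, a complexin of the vesicle fusion machinery, at 100 and 96.4 and then 5.93 and 18.1 CPM. Nxph4 had 7 UMIs in the first strip of mouse 1 (8.67 CPM) and stood at 5.82 CPM in mouse 2, with none in the second strip of either. The corticothalamic genes did not share 1 profile. Foxp2 stood at 50.8 and 46.5, 46.0 and 24.4, and 22.8 and 13.6 CPM in the first 3 strips and at 3.91 and 8.22 in the fourth. Trbc2 stood at 92.9 and 84.7, 110 and 90.3, 71.8 and 48.0, and then 25.4 and 35.2 CPM. Sulf1, a heparan sulfate sulfatase gene, was already lower in the second strip (19.8 and 21.6, then 10.4 and 9.03 CPM), whereas Crym stood at 105 and 108 CPM in the fourth strip against 123 and 110 in the first. Ighm ran from 154 and 169 CPM in the first strip to 94.5 and 67.9 in the third and 21.8 and 37.1 in the fifth.

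Beyond these strips came the genes of the other layers. Etv1, a layer 5 factor, was highest between 4 and 5 pitches in mouse 1 (196 CPM) and between 3 and 4 in mouse 2 (194 CPM), and Calb1, a calcium buffer of upper-layer neurons, rose from 19.8 and 14.1 CPM in the first strip to 171 and 81.7 beyond 6 pitches. The layer 6 spots of mouse 1 fell into the 7 strips as 34, 35, 19, 3, 6, 3 and 2, and those of mouse 2 as 49, 28, 6, 5, 2, 0 and 0. The chosen spots were thus mostly within the 3 strips in which Foxp2, Trbc2 and Ighm were high.

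**Figure D3:**
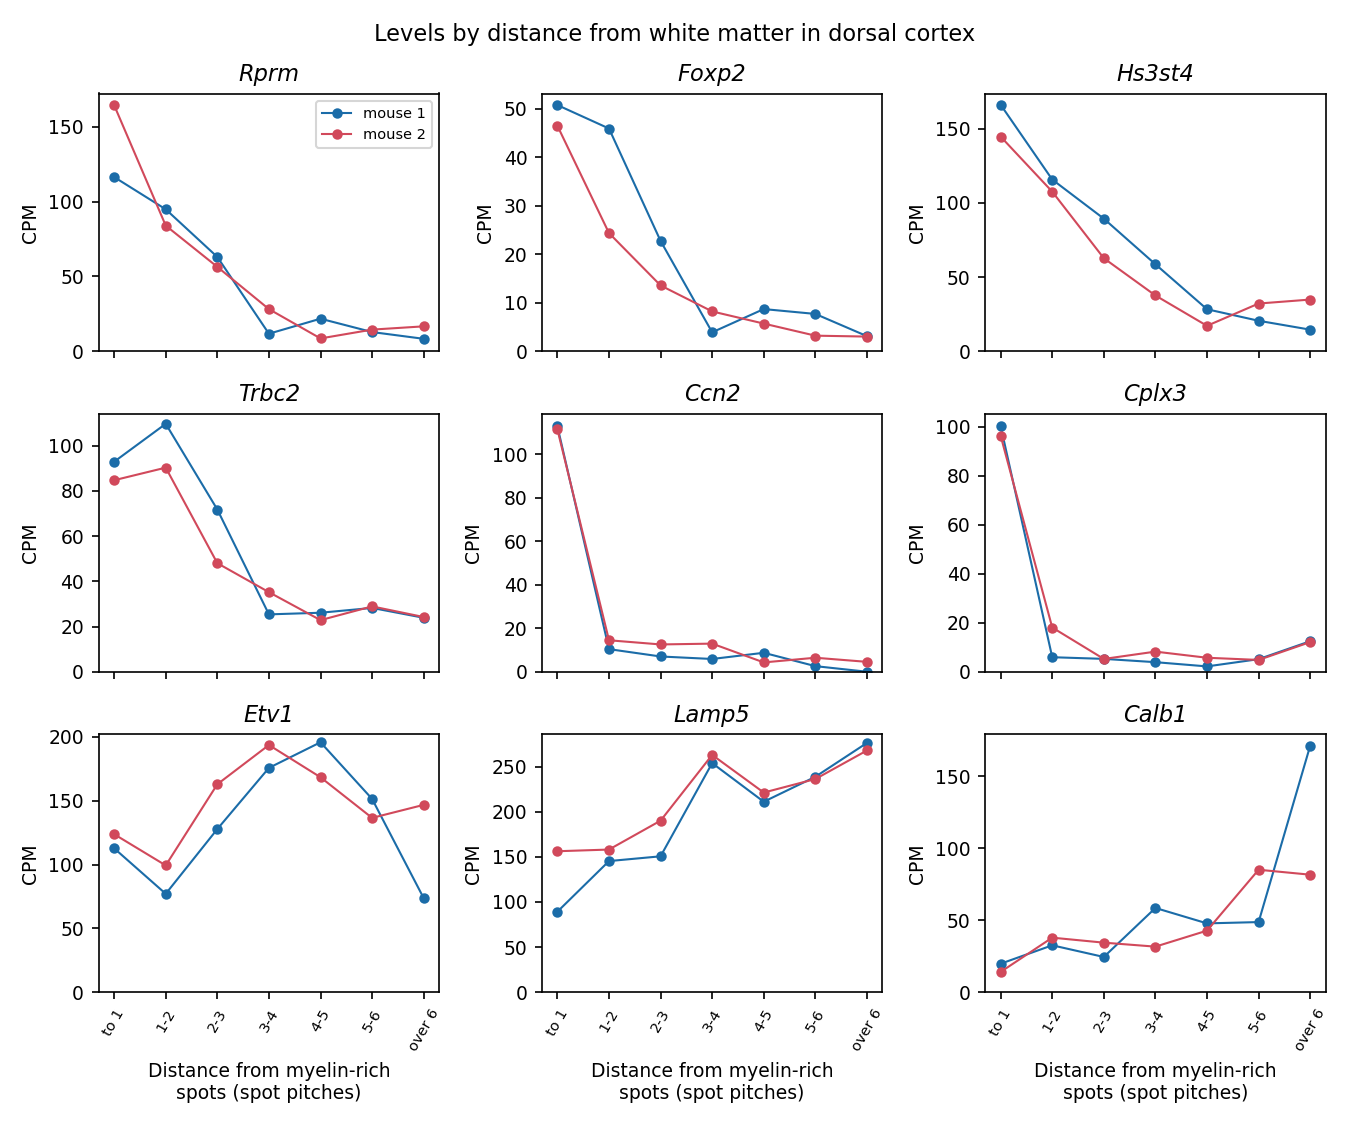
Levels in CPM of 9 genes in strips of distance from the myelin-rich spots, in spot pitches, over all spots of the dorsal mask; 1 line per mouse. Ccn2 and Cplx3 drop after the first strip in both mice and Foxp2 and Trbc2 are low from the fourth, while Calb1 is highest in the last strip of mouse 1 (171 CPM) and in the last 2 strips of mouse 2.

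To see what sets layer 6 apart from its neighbours, its summed spots were compared with 3 equal sets of 110 spots per section. The sets were picked in the same way with genes of layer 5 (Etv1, Parm1, Deptor and Bcl6), layer 4 (Rorb, Rspo1, Whrn and Scnn1a) and upper layers (Cux2, Otof, Stard8 and Rasgrf2). Each gene was tested over 8 libraries, with the mouse as a block, in edgeR's quasi-likelihood test. The p-values were adjusted over all 10871 genes by the Benjamini-Hochberg method, and a change is called at an adjusted p below 0.05. Differences are log2 values with their standard error (SE), n = 2 mice. All sets were picked on the RNA of these same spots, so genes that vary with the picking genes were favoured, and the tests reach no further than these 2 sections. Their SE and p rest mostly on a spread pooled over genes. A small p therefore does not measure how closely the 2 mice agreed in that gene. The 3 comparisons share the layer 6 libraries and are not independent of each other.

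Not all picked spots were cortical. Of 110 spots, 65 and 74 of the layer 5 set, 43 and 31 of the layer 4 set and 64 and 32 of the upper-layer set lay in the dorsal mask. The rest lay deeper. Of 12 thalamic genes, 10 were lower in layer 6 than in the layer 5 set and all 12 were lower than in each of the other sets. Prkcd stood at 94.96 and 61.4 CPM in the layer 5 set, at 347 and 636 in the layer 4 set and at 173 and 286 in the upper-layer set, and Zic1, a zinc finger factor of the thalamus, at 78.6 and 67.7, 118 and 207, and 84.5 and 139 CPM. Shox2, Slitrk6, Calb2 and Lhx9, or Chrna3 and Gpr151 of the habenula, stood beside them among the largest falls. The comparisons were therefore repeated with sets picked inside the mask only, an alternative chosen after the data had been seen. In mouse 2 the mask held only 425 spots, 90 of them layer 6 spots, so the 3 sets of 110 took nearly all the rest. The upper-layer set was picked last, and its genes chose little there. Its median distance to myelin-rich spots in mouse 2 was 4.36 pitches, the same as that of the layer 4 set. The sets inside the mask are therefore not clean layers either. Inside the mask the layer 4 set held 8.31 and 17.4 CPM of Prkcd, around the 14.7 and 15.4 CPM of layer 6, and 10154 genes were tested.

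Against layer 5, layer 6 was higher in 486 genes (4.47% of those tested) and lower in 412 (3.79%). Inside the mask 513 were higher (5.05%) and 562 lower (5.53%). The calls held in both were 313 higher (64.4% of the first count, 61.0% of the second) and 238 lower (57.8% and 42.3%). Against layer 4 the counts were 814 (7.49%) higher and 889 (8.18%) lower, and inside the mask 245 (2.41%) and 285 (2.81%), with 143 and 116 shared. Against upper layers they were 573 (5.27%) and 552 (5.08%), and inside the mask 290 (2.86%) and 365 (3.59%), with 166 and 85 shared. The counts against layer 4 and upper layers thus rested largely on which spots stood for those layers. Some first calls had no test inside the mask and could not be shared. Among the lower ones these were 63 of 412 against layer 5, 164 of 889 against layer 4 and 123 of 552 against upper layers.

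Cplx3 and Ccn2 of layer 6b rose in all 3 comparisons. Cplx3 stood at 50.4 and 85.0 CPM in layer 6, at 1.09 and 5.12 CPM in the layer 5 set, at 11.5 and 10.2 in the layer 4 set and at 5.54 and 7.96 in the upper-layer set. Both layer 6 values lay above all of the others. The difference was 4.26 ± 0.33 (log2, SE) against layer 5, 2.80 ± 0.27 against layer 4 and 3.39 ± 0.30 against upper layers, with adjusted p of 4.0e-12, 2.4e-10 and 4.3e-11. Inside the mask it was 4.62, 2.01 and 2.51. Ccn2 stood at 47.2 and 105 CPM against 12.0 and 10.2, 7.69 and 8.39, and 2.77 and 13.1 CPM. It was higher by 2.93 ± 0.27, 3.40 ± 0.29 and 3.15 ± 0.28, and inside the mask by 2.86, 2.48 and 3.24, all called. Of 6 tested layer 6b genes, 2 rose and none fell against layer 5, with a median of -0.01, 3 rose and 2 (Inpp4b and Tmem163) fell against layer 4, and 4 rose and 1 (Inpp4b) fell against upper layers. Inside the mask 3, 3 and 4 of the 5 tested under both picks rose and none fell.

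Of 12 tested corticothalamic genes of 13 listed, 9 rose and 1 fell against layer 5, 10 and 1 against layer 4 and 9 and 1 against upper layers. Their median differences were 1.51, 1.85 and 1.86, beside medians of all genes within 0.01 of 0. Inside the mask 10, 9 and 10 of them rose, and 9, 8 and 8 did so in both picks. Trbc2 stood at 9.82 and 17.6 CPM in the layer 5 set and at 23.7 and 23.3 inside the mask, below both layer 6 values of 122 and 95.4. It was higher in layer 6 by 2.82 ± 0.23, 2.82 ± 0.23 and 2.95 ± 0.24, and inside the mask by 2.11, 1.32 and 1.31. Hs3st4 was higher by 1.95 ± 0.16, 1.80 ± 0.16 and 1.89 ± 0.16, and Tle4 by 1.50 ± 0.17, 1.59 ± 0.17 and 1.83 ± 0.18, with all 6 calls also made inside the mask. Sla, an adaptor gene of receptor signalling, had 15 and 32 UMIs in layer 6 against 4 and 1 in the layer 5 set, a difference of 3.11 ± 0.60 that was lost with DESeq2.

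Foxp2 showed how much the pick of spots mattered. The layer 4 set as first picked held 35.9 and 77.3 CPM of it, overlapping the 55.6 and 47.2 CPM of layer 6, and the difference of -0.27 ± 0.23 was not called (adjusted p = 0.50). Inside the mask the layer 4 set held 22.2 and 6.95 CPM, and layer 6 was higher by 1.96 ± 0.30 (adjusted p = 1.1e-06). Against upper layers the difference went from 0.07 ± 0.24 to 2.83 ± 0.35, and against layer 5 from 1.51 ± 0.29 to 2.93 ± 0.33. The thalamic factor Tcf7l2 moved with it, at 219 and 360 CPM in the layer 4 set as first picked and at 12.5 and 8.34 inside the mask. Its part in the result was not tested. Nnat turned the same way: it was lower by 0.91 to 1.46 against the first sets, and inside the mask higher by 0.68 ± 0.20 against layer 5 (adjusted p = 0.015) and not called against the others.

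Several genes of layer 5 and the upper layers were lower in layer 6. Tshz2, a zinc finger factor of near-projecting layer 5 neurons, stood at 17.8 and 11.5 CPM against 105 and 93.9 in the layer 5 set, a fall by 2.80 ± 0.22 on the log2 scale, and fell by 3.26 ± 0.20 inside the mask. Htr2c, a serotonin receptor gene, had 4 and 10 UMIs in layer 6 (4.20 and 5.48 CPM) against 44.7 and 56.9 CPM in the layer 5 set. It fell by 3.35 ± 0.31, 3.22 ± 0.32 and 3.60 ± 0.30, and inside the mask by 3.13, 2.34 and 2.47. Calb1 fell by 1.83 ± 0.19 against layer 4 and by 2.67 ± 0.17 against upper layers, and Cux1, a homeodomain factor of upper layers, by 1.20 ± 0.24 and 1.21 ± 0.24. These 4 calls were also made inside the mask. Lamp5, another upper-layer gene, fell by 1.22 ± 0.17 against layer 5 but was not called against layer 4 or upper layers unless the sets came from the mask, where it fell by 1.71, 1.16 and 1.41. Pcp4, a calmodulin regulator used as a layer 5 marker in some areas, stood at 2078 and 1935 CPM in layer 6, above the 1150 and 951 CPM of the layer 5 set (0.96 ± 0.09) and the 829 and 755 CPM of that set inside the mask, where it was called as well.

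**Figure D4:**
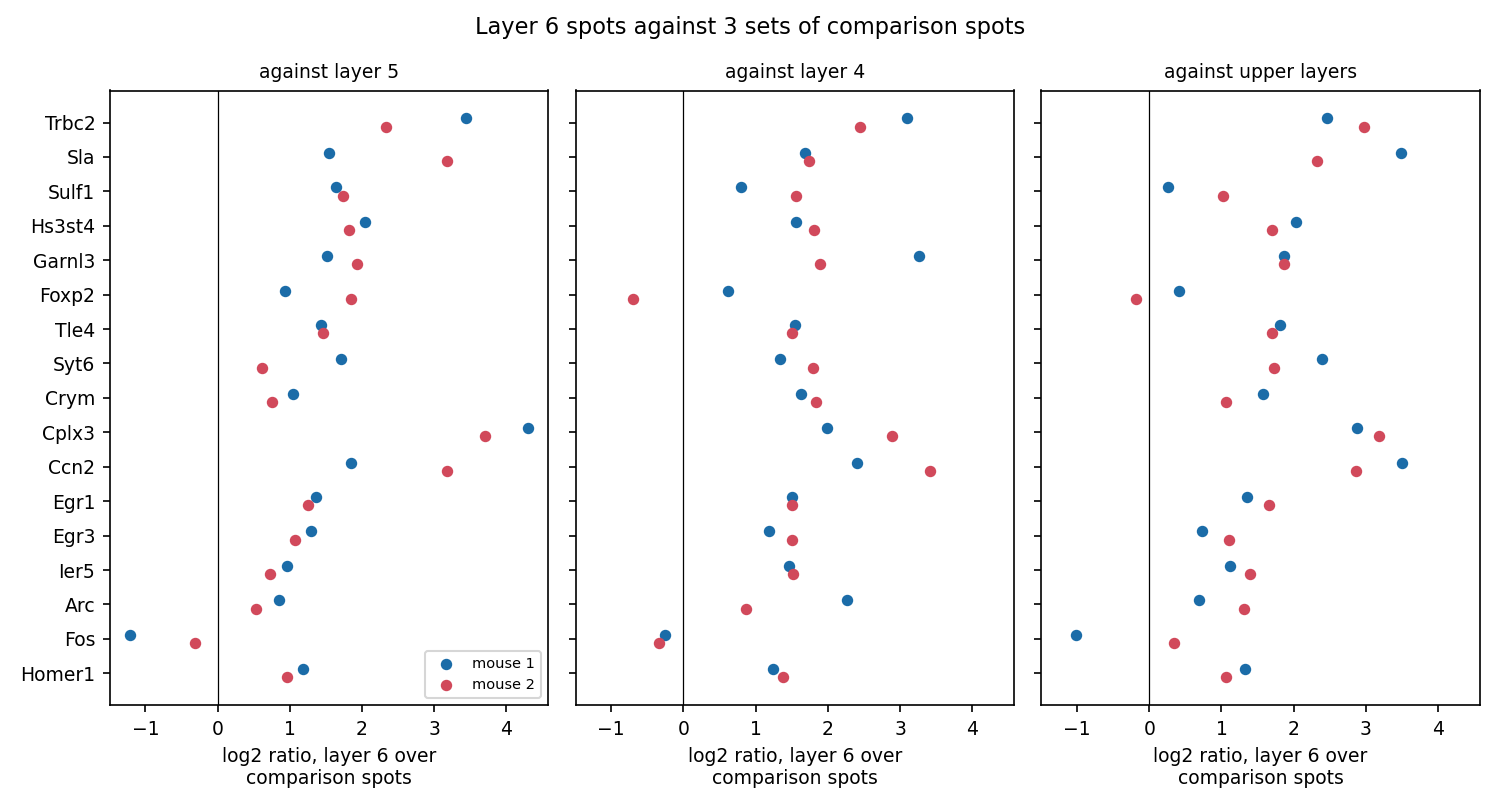
Log2 ratio of layer 6 over the layer 5, layer 4 and upper-layer sets as first picked, 1 point per mouse, for corticothalamic, layer 6b and activity-regulated genes; the vertical line marks equal levels. Trbc2, Hs3st4, Tle4, Cplx3, Ccn2, Egr1 and Homer1 lie right of the line in both mice in all 3 panels, whereas the points of Foxp2 fall on both sides of it against layer 4 (35.9 and 77.3 CPM there) and upper layers.

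Genes that neurons switch on with activity were examined because both mice had received CNO. They are a mixed group: Fos, Egr1 and Npas4 are transcription factors induced within minutes, Arc acts at synapses, and Homer1, a synaptic scaffold, follows later. Egr1 stood at 323 and 375 CPM in layer 6, at 124 and 157 in the layer 5 set, at 113 and 132 in the layer 4 set and at 126 and 118 in the upper-layer set, without overlap. Egr1 was higher by 1.31 ± 0.11, 1.55 ± 0.12 and 1.60 ± 0.12, and inside the mask by 0.92 ± 0.10, 0.41 ± 0.10 and 0.60 ± 0.10, all called. Homer1 stood at 199 and 220 CPM and was higher by 1.06 ± 0.12, 1.38 ± 0.13 and 1.21 ± 0.13, and inside the mask by 0.65, 0.45 and 0.54, all called. Fos went with neither: it stood at 9.45 and 14.8 CPM in layer 6 (9 and 27 UMIs) against 24.0 and 18.8 in the layer 5 set, and was not called in any of the 3 comparisons, although inside the mask it fell by 1.03 ± 0.32 against layer 5 (adjusted p = 0.022). Arc was called against layer 4 (1.37 ± 0.32) and upper layers (1.19 ± 0.31), but in none of the 3 comparisons inside the mask.

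Of 15 tested immediate early genes of 19 listed, 3 rose and none fell against layer 5, 6 rose and 2 fell against layer 4 and 4 rose and 1 fell against upper layers. Inside the mask 3, 1 and 2 rose and 1, 1 and 0 fell. The genes that rose under both picks were Egr1, Egr3 and Ier5 against layer 5, Egr1 against layer 4 and Egr1 and Ier5 against upper layers. Dusp6 fell against layer 4 under both picks. With no section from an animal without CNO or hM3Dq, a difference between layers that CNO brought about and one that was there before cannot be told apart.

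Synapse and channel genes changed in both directions. Slc17a7 stood at 580 and 687 CPM in layer 6 against 373 and 405 in the layer 5 set, and was higher by 0.72 ± 0.09, 1.14 ± 0.09 and 0.95 ± 0.09, and inside the mask by 0.55, 0.34 and 0.50, all called. Of 25 tested vesicle and transmitter genes, 9 rose and 6 fell against layer 5, and 7 and 6 did so under both picks. Among those that fell, Vamp1, a synaptobrevin of fast-firing neurons, stood at 35.7 and 59.2 against 117 and 141 CPM (fell by 1.37 ± 0.15), and Syt2, a fast calcium sensor, at 15.7 and 15.4 against 50.2 and 51.8 CPM (fell by 1.70 ± 0.26). Pvalb, the calcium buffer of fast-spiking interneurons, moved with them, at 206 and 236 against 751 and 656 CPM, and fell by 1.60 ± 0.14 and by 2.04 ± 0.09 inside the mask. Whether these falls share a source was not tested.

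Of 55 tested ion channel genes, 5 rose and 9 fell against layer 5, with a median of -0.06. Under both picks 8 fell, among them Kcna2, Kcnab1, Kcnab3, Kcnip4, Scn1a and Scn4b. Kcnab3, a potassium channel subunit, stood at 22.05 and 17.5 CPM in layer 6 against 75.3 and 60.3 in the layer 5 set and fell by 1.76 ± 0.22. Among receptors, Grik3, a kainate receptor subunit, stood at 51.4 and 59.8 against 20.7 and 17.1 CPM and was higher by 1.63 ± 0.24, 2.06 ± 0.26 and 1.85 ± 0.25, and inside the mask by 1.43, 1.12 and 1.05. Adra2a, an adrenergic receptor gene, stood at 15.7 and 15.9 CPM against 1.09 and 1.71 in the layer 5 set. In the layer 5 set it had 1 and 3 UMIs, too few for a fold, and the fitted difference was 3.33 ± 0.60 (adjusted p = 1.5e-04).

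Guidance and adhesion genes included some that rose in all 3 comparisons under both picks. Sema3e, a secreted semaphorin, stood at 46.2 and 47.7 CPM against 15.3 and 24.5 in the layer 5 set, and was higher by 1.18 ± 0.25, 1.50 ± 0.27 and 1.53 ± 0.27. Nxph3 was higher by 1.66 ± 0.29, 2.59 ± 0.35 and 3.20 ± 0.38. Over the list of 62 tested genes, 13 rose and 10 fell against layer 5, with a median of 0.09.

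Of 13 oligodendrocyte genes, none was called against the layer 5 set as first picked and 12 rose inside the mask. Against layer 4, 4 rose as first picked and 11 inside the mask, and against upper layers 10 and 13, with the 4 and the 10 called under both picks. Mbp, the myelin basic protein gene, differed from layer 5 by 0.14 ± 0.07 (not called) and by 0.65 ± 0.08 inside the mask. By its definition the mask holds no myelin-rich spot, whereas the layer 6 spots were not masked and included 2 and 14 of them. The pick inside the mask therefore favoured a rise of oligodendrocyte genes in layer 6. Of 12 tested astrocyte genes, 1 rose and 5 fell against layer 5, none rose and 7 fell against layer 4, and 1 rose and 7 fell against upper layers. Inside the mask 3, 2 and 3 of them fell and 1, 0 and 0 rose. No microglial gene of 12 tested was called in any of the 3 comparisons as first picked, and 1 was called inside the mask, against layer 5.

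The immune genes named by the series' question did not move together. Ighm stood at 171 CPM in both layer 6 sets against 77.5 and 29.0, 49.97 and 12.6, and 27.7 and 28.4 CPM in the layer 5, layer 4 and upper-layer sets, with no overlap. It was higher by 1.90 ± 0.21, 2.80 ± 0.24 and 2.60 ± 0.23, and inside the mask by 2.09 ± 0.16, 1.61 ± 0.15 and 1.69 ± 0.16. The call of Ighm against layer 5 was lost with DESeq2. The light chain gene Igkc, by contrast, had 1 and 4 UMIs in layer 6 (1.05 and 2.19 CPM) against 35.4 and 13.9 CPM in all other spots. Igkc was lower in layer 6 in all 3 comparisons as first picked, by fits that rest on those few UMIs and lost the call with DESeq2 and without the mouse block. Igkc gave no test inside the mask, so its fall was neither kept nor lost there. Of the 9 complement and immunoglobulin genes tested inside the mask, 0 were lower in any of the 3 comparisons. The B-cell receptor gene Cd79a, the T-cell gene Trac and Trbc1 had no UMI in layer 6 of either mouse, and Jchain had 0 and 1. Ighg2c, a heavy chain of another immunoglobulin class, had 12 and 19 UMIs, 12.6 and 10.4 CPM against 1.45 and 0.486 elsewhere. In all other spots Cd79a stood at 0.168 and 0.280 CPM and Trbc1 at 0.0336 and 0.318, both under the 3.15 and 1.65 CPM that a count of 0 in layer 6 allows, so no lower level could be seen. Trac, at 2.25 and 2.22 CPM elsewhere, was above that limit in mouse 2 only. Jchain, at 4.17 and 1.53 CPM elsewhere, was at least 1.32-fold lower in layer 6 of mouse 1. The part of lymphocytes in the Ighm and Trbc2 values was not tested.

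The 3 chains of C1q, which starts the classical complement pathway and comes from microglia in brain, were not called in any of the 3 comparisons or inside the mask. C1qa stood at 68.2 and 68.0 CPM in layer 6, within the range of the other sets (90.6 and 68.3, 85.8 and 73.7, 63.7 and 76.2 CPM). Its differences were -0.15 ± 0.16, -0.16 ± 0.16 and -0.04 ± 0.17. C1qb stood at 56.7 and 70.2 CPM and C1qc at 54.6 and 47.7, with differences from -0.30 to 0.03 and from -0.28 to -0.05. The SE of these differences was 0.16 to 0.18, and a p that misses the threshold does not show equal levels.

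Within layer 6, genes differed with depth. Spots were split at the median distance to the myelin-rich spots, taken within each side of each section. The 57 and 65 near spots lay up to 1.73 pitches away in mouse 1 and up to 1 in mouse 2. They were compared with the other 53 and 45 by the same edgeR quasi-likelihood test over 4 libraries. In mouse 1 the far spots also began at 1.73 pitches, so the 2 sets met at that distance. The near spots had medians of 9722 and 16724 UMIs, the far ones 7809 and 15563. Of 7660 genes tested, 128 (1.67%) were higher near the white matter and 71 (0.927%) lower.

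Ccn2 stood at 76.1 and 163 CPM near and at 9.67 and 15.4 far, a difference of 3.26 ± 0.29 (adjusted p = 6.4e-24). Cplx3 stood at 83.5 and 128 CPM near and at 7.25 and 18.1 far, a difference of 2.94 ± 0.30 (adjusted p = 1.8e-18). Neither pair of values overlapped. The split held on each side of each section: Ccn2 was at 89.0 and 62.1 CPM in the left and right near spots of mouse 1 and at 147 and 185 in those of mouse 2, against 10.9, 8.66, 15.7 and 15.1 CPM in the matching far spots. The gap of Ccn2 between the mice within all layer 6 spots was 47.2 and 105 CPM. It went with more layer 6 spots that touched or were a myelin-rich spot in mouse 2 (38 and 65). The near spots reached up to 1.73 pitches in mouse 1 and 1 in mouse 2, so their levels in the 2 mice are not of the same depth. In the strip touching the white matter, taken without the layer 6 rule, the Ccn2 level was 113 and 111 CPM. Ccn2 and Cplx3 were 2 of the 3 genes called among 5 tested on the layer 6b list. The other was Lpar1, a lysophosphatidic acid receptor gene that oligodendrocytes also express, at 31.6 and 73.2 CPM near against 19.3 and 20.9 far (1.47 ± 0.31).

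Of 11 tested corticothalamic genes, 1 was called: Hs3st4 stood at 156 and 170 CPM near and at 109 and 101 far, a difference of 0.64 ± 0.16 that was lost in 5 of the alternative settings. Foxp2 stood at 64.96 and 54.2 CPM near and at 43.5 and 36.3 far, with the near value above the far one on both sides of both mice, and was not called (0.54 ± 0.27, adjusted p = 0.37). Trbc2 was not called either (0.00 ± 0.18), and Ighm stood at 189 and 192 near and at 147 and 138 CPM far (0.40 ± 0.15, adjusted p = 0.13). None of 11 tested immediate early genes was called, Egr1 among them with 0.12 ± 0.11.

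All 10 tested oligodendrocyte genes were higher near the white matter. Mal, a myelin proteolipid, stood at 358 and 440 CPM near and at 140 and 138 far, a difference of 1.52 ± 0.13. The summed level of the 13 listed genes was 11155 and 15256 CPM near and 5332 and 5375 far, as the definition of the split by myelin-rich spots favours. Gfap, an astrocyte filament, was higher by 1.55 ± 0.31 and Ctss, a microglial protease, by 1.01 ± 0.24. Both calls were lost without the layer 6 spots of highest myelin gene score, and that of Ctss also with 60 spots per section. That setting ranked the layer 6 spots among themselves, so it did not drop only the myelin-rich spots defined above. Without the layer 6 spots of highest myelin gene score the genes higher near the white matter went from 128 to 12. Of the genes followed in the alternative settings, 21 then lost their call, and Enpp2 went to -0.01. Cplx3 differed by 2.30 and Mal by 0.68, both still called. On the far side, Pvalb stood at 222 and 373 CPM against 193 and 147 near and fell towards the white matter by 0.99 ± 0.13, a call lost with 60 spots per section and with DESeq2. The Pvalb difference came mostly from mouse 2: with mouse 1 alone it was -0.20 and with mouse 2 alone -1.32. The far side was also higher in Slc30a3, a vesicular zinc transporter (48.3 and 60.03 against 14.8 and 29.8 CPM), and in Nefh, a neurofilament of large neurons (41.1 and 50.3 against 20.4 and 20.8 CPM). The call of Slc30a3 was lost in 3 alternative settings and that of Nefh in 4. In both genes these included the setting without the layer 6 spots of highest myelin gene score and the one without the mouse block.

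**Figure D5:**
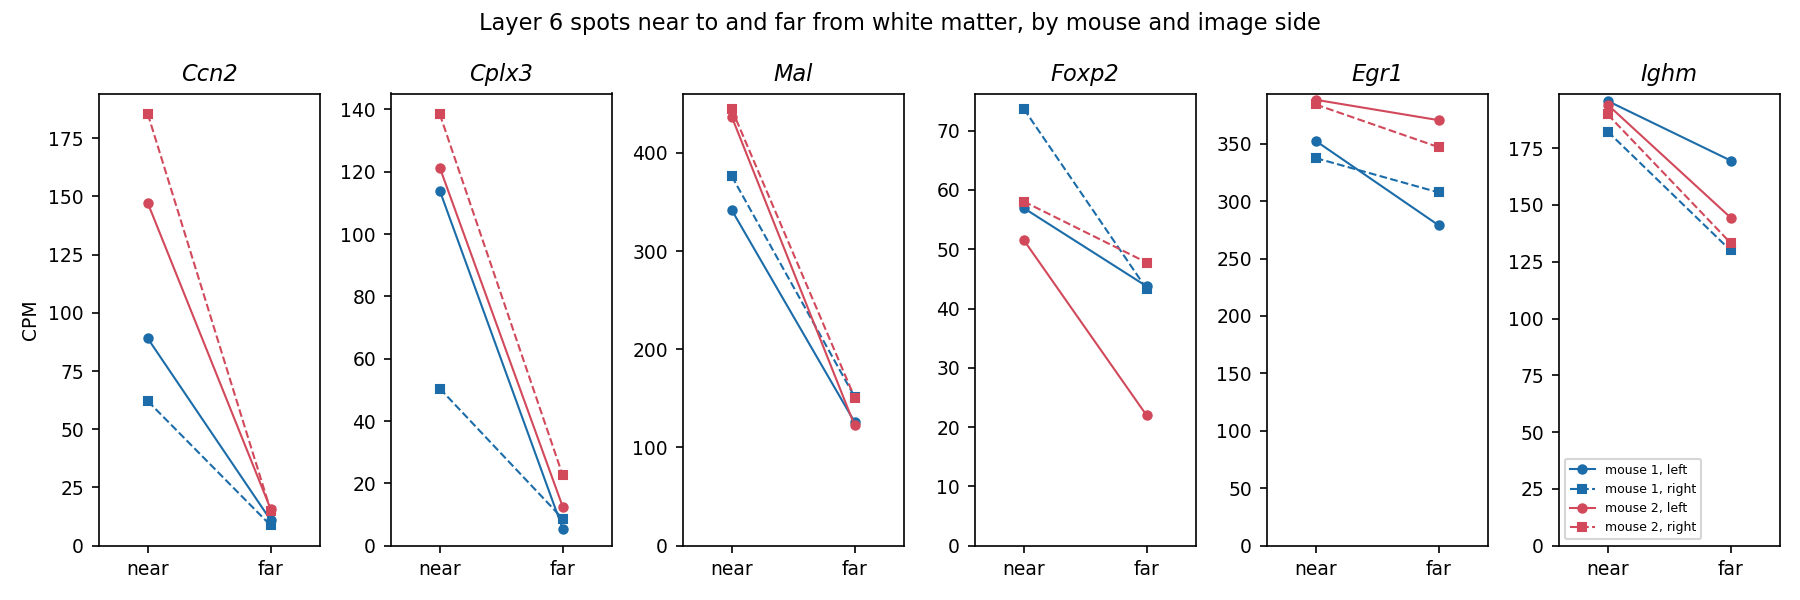
Levels in CPM of 6 genes in layer 6 spots near to and far from the white matter, with a line joining both for each side of each section and 1 point for each side of each section. All 4 near points of Ccn2 (62.1 to 185 CPM) and Cplx3 (50.4 to 138 CPM) lie above all 4 far points (8.66 to 15.7 and 5.47 to 22.6 CPM).

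The image sides were compared because hM3Dq was injected on 1 side. Of 7947 genes, 1 was higher on the left (0.0126%) and none lower (0%) by edgeR, while 302 (3.80%) had an unadjusted p under 0.05 and DESeq2 called none. The gene called was Hbb-bs, a haemoglobin chain of red blood cells that shares near-identical copies, at 1238 and 1053 CPM on the left and at 866 and 698 on the right (0.58 ± 0.13, adjusted p = 0.029). The order of the sides depended on depth: in near spots the left held 1310 and 1249 CPM against 520 and 295 on the right, and in far spots 1127 and 647 against 1252 and 1151. Fos stood at 15.1 and 21.5 CPM on the left (7 and 21 UMIs) and at 4.09 and 7.10 on the right (2 and 6 UMIs), higher on the left in both mice. It was not called after adjustment (1.69 ± 0.62, adjusted p = 0.998). Egr1 stood at 323 and 382 CPM on the left and at 323 and 367 on the right, and Ighm at 185 and 178 against 158 and 163.

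Medial and lateral layer 6 spots differed in few genes: of 8046 tested, 27 (0.336%) were higher medially and 6 (0.0746%) laterally. Crym, a thyroid hormone-binding protein gene, stood at 161 and 155 CPM medially and at 74.4 and 94.3 laterally, a difference of 0.89 ± 0.18 (adjusted p = 2.8e-04). Ttr, the choroid plexus gene, was higher medially by 0.80 ± 0.13 and the haemoglobin genes Hba-a2 and Hba-a1 by 0.78 ± 0.13 and 0.67 ± 0.12. Among the genes higher laterally were Nrgn, a calmodulin-binding protein gene, by 0.29 and Pcp4 by 0.27. None of these calls was kept in every alternative setting. Ighm stood at 138 and 136 CPM medially and at 200 and 203 laterally without overlap, and was not called (-0.53 ± 0.15, adjusted p = 0.071).

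Some interneuron peptides differed between the mice in layer 6. Sst, somatostatin, stood at 272 CPM in mouse 1 and at 553 in mouse 2, beside 232 and 244 in all other spots, and its relative Cort at 25.2 and 68.5 beside 16.3 and 15.4. Npy, in part made by the same cells, was closer, at 255 and 310 CPM. With 1 section per mouse these are values without a test.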

How the data were processed

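Spatial gene expression was measured in 2 brain sections. The deposited values are raw UMI counts per gene and spot, and per the file headers the authors' counting software was Space Ranger 1.3.1. The submitters' processing notes name mm10 as the genome build. The files hold 32285 genes, of which 78 share a symbol with another. These stayed in the tests and were left out of the description against all other spots, the lists and the named genes. Spots with at least 500 UMIs were kept. Counts were summed per mouse over each set of spots and divided by the total for CPM. Tests used edgeR 4.0.16 in R 4.3.3 (TMM factors, filterByExpr, mouse as a block because both regions come from the same animal, quasi-likelihood test, Benjamini-Hochberg adjusted p below 0.05). DESeq2 1.42.0 was an alternative. The fit of the layers had 3 residual degrees of freedom and the fits within layer 6 had 1. The spread pooled over genes weighed more, with 34.8 prior degrees of freedom for the layers and 593 for near against far. For the sides and for medial against lateral the prior was infinite, so the SE and p there, too, rest on the pooled spread. The edgeR step was tested on simulated data. The 16 genes that chose spots got no p-value.

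Named genes are the 4 rule genes, the 12 highest and 6 lowest against all other spots, and in each test the 6 largest rises and 6 largest falls with the same direction in both mice and at least 20 CPM, up to 2 genes per list, and Fos, Arc, Egr1, Npas4, C1qa, C1qb, C1qc, Igkc and Ighm. Other genes given as examples of a list, or for a contrast between picks of spots, were chosen after their values were seen. The members and the 33 lists were chosen with earlier results of these data known.

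Some genes are not reported here.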

Additional observations from a re-analysis of the deposited data

How the results depend on the processing

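Of the genes followed and called, 17 of 31 against layer 5, 20 of 34 against layer 4, 17 of 33 against upper layers and 3 of 30 near against far (Ccn2, Cplx3 and Mal) kept their call under every alternative that gave a test, and none of the 12 medial and lateral ones and not the 1 of the sides did. With no mouse block, that is without the pairing of regions from 1 animal, the counts of genes higher and lower were 235 and 223 against layer 5, 308 and 344 against upper layers, 62 and 7 near against far, and 0 and 0 medially; 526 were higher against layer 4 and 0 on the left. With DESeq2 they were 91 and 91 against layer 5, 244 and 276 against layer 4, 155 and 167 against upper layers, 9 and 4 near against far, 0 and 0 medially, and 0 on the left. With comparison spots from the dorsal mask only they were 245 and 285 against layer 4 and 290 and 365 against upper layers. With 60 spots per section they were 26 and 12 near against far, 6 and 0 medially and 4 higher on the left, and with 160 spots 235 and 175 near against far and 0 on the left. Without the layer 6 spots of highest myelin gene score 12 were higher near the white matter and 0 on the left. With spots of at least 2 neighbours only, 22 were lower near the white matter, 2 higher and 1 lower medially and 4 higher on the left, and with library totals in place of TMM 14 were higher medially. Not all followed genes gave a test with comparison spots from the dorsal mask only. Some calls against layer 4 that count as kept therefore never met that setting. Against other spots of rows up to 40 only, 102 genes were higher in layer 6. With a mouse left out, 270 to 305 genes were higher and 324 to 352 lower than in all other spots; the tested comparisons then have no residual degrees of freedom and give values without a test.

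These genes turned direction. Inside the dorsal mask Agt was at 0.90 against layer 5 and 0.52 against upper layers (log2), Gabra4 at 0.13 against layer 4 and 0.31 against upper layers, and Prkcd at 0.0069 against layer 4. Without myelin-rich spots Opalin was at -0.0555 against layer 4 and Enpp2 at -0.0071 near against far. With 60 spots Hbb-bt was at 0.84 near against far. Synpr ranged from -1.31 to 0.027 against upper layers with a mouse left out. The cause was not tested.

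Depth limits genes of few UMIs: Fos, Npas4, Ntsr1, Igkc, Nxph4 and Ighg2c had under 30 UMIs in layer 6 of either mouse. With 2 sections, no test reaches beyond these animals.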
